A study of Mus musculus with 6 samples.

Results

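Antisense genes are annotated on the strand opposite to another gene, and in mouse many of them carry only a placeholder symbol made of Gm and a number. Their RNA can be complementary to the RNA of the opposite gene, and some antisense RNAs are known to affect the transcription, splicing or stability of that gene, whereas for most no role is known. Counting reads for such genes needs libraries that keep the strand of each RNA, since reads from the opposite gene cover the same bases. Of 15286 genes with counts in mouse pancreatic islets, 1156 had a Gm symbol and the antisense gene type in the GENCODE vM21 annotation, and 203 of these are described here. They were chosen by their measured counts, a mean raw count of 100 or more over the 6 libraries. A further 952 were under this minimum, and Gm45774 was left out by name. Gm20721 was also to be left out, but it is annotated as protein-coding and was never a candidate.

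The study asked whether islet RNA changes when transcription of the long non-coding RNA A830019P07Rik is truncated. Male mice 12 weeks of age, 3 WT and 3 flox/flox, gave hand-picked islets, and total RNA was sequenced strand-specifically in 1 library per mouse. All were on a C57Bl/6 N background, had fasted overnight before islet isolation, and their islets recovered for 2 h at 3 mM glucose. The flox/flox mice were homozygous for a floxed, promoter-driven neo trapping cassette in the first intron of A830019P07Rik, without cell type restriction, and the WT mice were their littermates. Litter 1 gave WT2772, WT2777, KO2775 and KO2776, and litter 2 gave WT2931 and KO2938. Counts on A830019P07Rik itself were not analysed here, and each mouse's genotype was taken as labelled.

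The counts summed to 698588, 793596 and 690726 in WT2772, WT2777 and WT2931, and to 646141, 611181 and 800255 in KO2775, KO2776 and KO2938. These sums were far below the sequencing depth that the paper states, and the reason was not tested. KO2938 stood apart, because a single gene, AY036118, took 41.0% of its counts. The same gene took 14.5, 20.0, 13.6, 14.5 and 22.1% in WT2772, WT2777, WT2931, KO2775 and KO2776. The numbers of genes called between genotypes or litters were therefore also computed without KO2938. So were the shares of counts, the ratios to the gene opposite and log2 fold changes of named antisense genes. Among others, the fit with litter as a block, the interaction, the fold changes of genes opposite and the sums of cell type markers were not.

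The strand to which these counts belong limits every value below. The authors counted with the default of HTSeq, which assigns a read to a gene on the read's own strand. They name a strand-specific NEB Ribo Zero protocol for the libraries. The orientation of the reads is not given in the sources used here. Whether the counts on a Gm gene came from its own RNA, or from RNA of the gene opposite read in the other orientation, was not tested. Genes that dominate islet RNA had few counts. Ins2, which encodes insulin, had 157, 205, 158, 165, 128 and 96 counts in WT2772, WT2777, WT2931, KO2775, KO2776 and KO2938. Gcg, which encodes glucagon, had 43, 114, 34, 43, 61 and 23 counts, and the cytoskeletal gene Actb had 32, 40, 26, 20, 24 and 14, in the same order of libraries. With a mean of 151.5 counts, Ins2 was below 138 of the 203 antisense genes, and per kb of exon it was below 126. Gapdh had 55, 47, 45, 41, 35 and 41 counts, and Hprt had 1, 2, 2, 1, 0 and 0. Of Ins1, Ins2, Gcg, Actb, Gapdh and Hprt, Gapdh was the 1 gene with exons of another gene opposite, which was Iffo1 with 68 bp shared and 26, 31, 21, 17, 21 and 9 counts. Genes of the mitochondrial genome were not analysed here. For these reasons the text speaks of counts on a gene and not of its expression.

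All 203 genes passed the filter on low counts, which kept 5478 genes of the table. The median of their mean counts was 202, with 103 genes at 200 or more and the 10 highest between 684 and 5540.3. A mean count of 100 or more was reached by 17.6% of the Gm-named antisense genes, and by 4.36% of the 10361 protein-coding genes. This is the minimum that chose the 203 genes, so the shares are a description and were not tested. Together the 203 genes held 9.83%, 8.50% and 9.55% of the counts in WT2772, WT2777 and WT2931. In KO2775, KO2776 and KO2938 they held 10.2%, 8.80% and 6.16%. The exact binomial 95% intervals were narrow, 10.1 to 10.3% in KO2775, the highest library, and 6.10 to 6.21% in KO2938, the lowest, and they cover counting error alone. Leaving AY036118 out of the totals gave shares of 11.5%, 10.6% and 11.1% in the 3 WT libraries and 11.9%, 11.3% and 10.4% in the 3 flox/flox libraries. On that scale KO2938 stood next to WT2777, the WT and flox/flox ranges overlapped, and so did those of the litters.

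The counts were spread over many loci. The 203 genes lay on 20 chromosomes, with 21 on chromosome 7, 19 on chromosome 1 and 17 on chromosome 9, and the 10 with the highest mean counts held 22.5 to 27.6% of the group's counts in each library. The coefficient of variation of CPM (counts scaled to library size after TMM normalization) over the 6 libraries had a median of 12.2% for the 203 genes and 12.6% for the other 761 genes with a mean count of 100 or more. Across the genes, Spearman's rho of the mean count was 0.22 with the exon length shared with the gene opposite (196 genes) and 0.01 with that gene's mean count (183 genes). These correlations are across genes of the same 6 libraries, and genes are not independent replicates. At the count minimum, the 5 lowest genes taken in were Gm16172 at 104, Gm10143 at 104, Gm15964 at 102, Gm28529 at 101 and Gm11626 at 100.2 counts. The 5 highest left outside were Gm17130 at 99.0, Gm16573 at 98.2, Gm16596 at 97.8, Gm27232 at 97.8 and Gm16794 at 97.7 counts.

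Gm11175 (ENSMUSG00000080058, chr8:70699162-70700080, minus strand, mm10) led the 203 genes, with raw counts of 7568, 6217 and 4631 in WT2772, WT2777 and WT2931 and 6549, 4934 and 3343 in KO2775, KO2776 and KO2938. It took 6.79 to 11.0% of the counts of the 203 genes, with both litter 2 libraries lowest. All 877 bp of its exons lay opposite the single exon of Jund, which encodes a subunit of the transcription factor AP-1. Jund itself had 55, 52, 33, 46, 35 and 17 counts in WT2772, WT2777, WT2931, KO2775, KO2776 and KO2938, far below Gm11175 in each library. Gm28902 (ENSMUSG00000100556, chr1:75272605-75275652, plus strand) had raw counts of 2169, 2360 and 2009 in WT2772, WT2777 and WT2931 and 2015, 1550 and 1366 in KO2775, KO2776 and KO2938, and ranked next in all 6 libraries. It shared 40 bp of exon with Resp18, a protein of neuroendocrine secretory granules, which had 5, 6, 2, 7, 10 and 5 counts. Gm28294 (chr1:75252322-75257427), opposite the granule membrane protein gene Ptprn, had 823, 769, 921, 722, 642 and 701 counts in the same order of libraries.

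**Figure D1:**
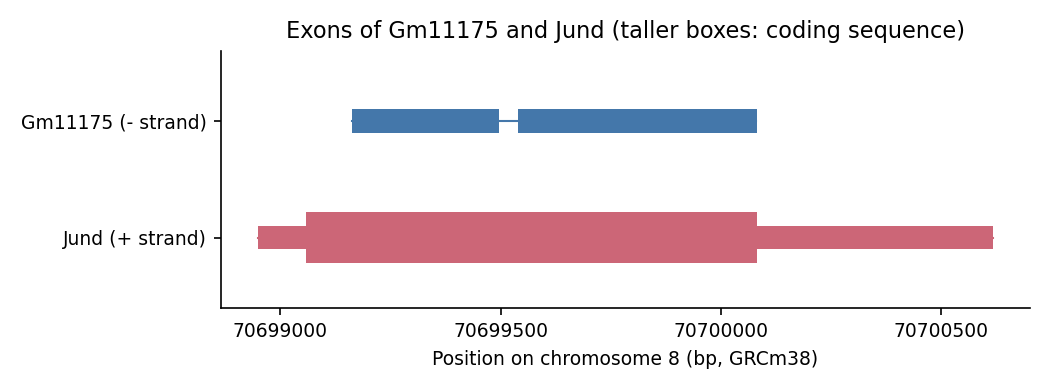
Exons of Gm11175 on the minus strand and of Jund on the plus strand along chromosome 8 (x axis, position in bp, GRCm38, the same build as mm10), where taller boxes are coding sequence. The 2 exons of Gm11175 lie within the coding sequence of Jund and share 877 bp with it.

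The other 7 genes among the 10 highest also lay opposite exons of protein-coding genes. Gm26759 had 1425, 1572, 1685, 1425, 1403 and 1035 counts in WT2772, WT2777, WT2931, KO2775, KO2776 and KO2938, opposite the transcriptional corepressor gene Irf2bp2. Gm47512 had 1374, 1259, 1399, 1363, 1124 and 981 counts in that order, opposite Tspyl4, a relative of nucleosome assembly factors. Gm15441 had 1141, 1344, 1279, 1194, 1471 and 694 counts, opposite Txnip, a thioredoxin inhibitor whose transcription responds to glucose. KO2776 was highest for Gm15441 and KO2938 lowest, so that the flox/flox libraries spanned the WT ones. Gm14703 had 1435, 1266, 1131, 1382, 1048 and 854 counts, opposite the synaptic vesicle gene Syp. Gm43126 had 1190, 1120, 1057, 1254, 966 and 840 counts, opposite the cyclin gene Ccnd2. Gm44170 had 1118, 1174, 1066, 1107, 897 and 737 counts, opposite Sec61a1, a subunit of the channel that takes proteins into the endoplasmic reticulum. KO2938 had the lowest raw count for each of these 3, as it had for Gm26759 and Gm47512. Gm37401 had 731, 762, 712, 725, 644 and 529 counts, opposite the GTPase gene Rhoa.

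Nearly all of these genes lay opposite an exon of a protein-coding gene. Exons of 196 of the 203 (96.6%) overlapped such an exon by at least 1 bp, against 557 of the 952 (58.5%) Gm-named antisense genes under the count minimum. Coding sequence was overlapped by 160 (78.8%) and by 414 (43.5%). The genes with lower counts had shorter exons, with a median of 767.5 bp in all against 1189 bp. Of the 132 with a mean of 50 to under 100 counts and a median of 921.5 bp, 106 (80.3%) lay opposite such an exon, as did all 5 just outside the minimum. The remaining 7 of the 203 shared no exon but lay opposite the span of such a gene, Gm45486 of Abcc8, Gm5441 of Ptprn2, Gm16185 of Slc25a36, Gm15893 of Msi2, Gm15638 of Phldb2 and Plcxd2, and Gm15810 and Gm15813 of Phactr1. Abcc8 encodes the sulfonylurea receptor of the beta cell potassium channel, and Ptprn2 a granule membrane protein. The partner of a gene is, from here on, the protein-coding gene with the longest exon overlap, and there were 195 different partners. By position, 108 antisense genes lay inside the span of the partner, 58 overlapped it at the 3′ ends and 23 at the 5′ ends, and 7 held the whole partner. The shared exon had a median of 442.5 bp, 37.0% of the antisense gene's exon length, and in 26 genes the whole exon length was shared. The longest overlaps were 2696 bp of Gm12758 with 4931406P16Rik, 2496 bp of Gm9917 with Rassf1 and 2151 bp of Gm17638 with Eif3d. These 3 had mean counts of 356, 335.5 and 648. Exons of more than 1 protein-coding gene lay opposite 23 genes, among them Gm47079, opposite the adhesion molecule genes Icam4, Icam1 and Icam5. In reverse, Gm26918 and Gm26954 shared the partner Pclo, a scaffold protein of secretory active zones, with mean counts of 399.5 and 288.5, and were named after their values were seen.

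The shared coding stretches of the 3 antisense genes with the highest counts that overlap coding sequence are shown, because reads from either strand cover these same bases. Each pair is the same stretch read 5′ to 3′ on each strand, from GENCODE vM21 transcripts on mm10, with the central 12 bases in capitals, so that 1 run of capitals is the reverse complement of the other. For Jund the central 60 of 543 bases at chr8:70699779-70699838 are given, for Resp18 all 40 bases at chr1:75275613-75275652, and for Tspyl4 the central 60 of 1218 bases at chr10:34298093-34298152.
Gm11175, minus strand: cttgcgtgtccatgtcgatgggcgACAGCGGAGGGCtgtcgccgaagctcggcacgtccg
Jund, plus strand: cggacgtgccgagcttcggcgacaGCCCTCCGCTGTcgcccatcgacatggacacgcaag
Gm28902, plus strand: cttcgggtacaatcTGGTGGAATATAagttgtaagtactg
Resp18, minus strand: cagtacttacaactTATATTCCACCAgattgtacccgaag
Gm47512, minus strand: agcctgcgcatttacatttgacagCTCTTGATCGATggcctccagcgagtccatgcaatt
Tspyl4, plus strand: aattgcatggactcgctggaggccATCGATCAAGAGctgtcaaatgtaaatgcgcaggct

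Counts on the antisense gene exceeded those on the partner at nearly every locus. Of the 196 genes with a partner, 183 had one with counts in the table, and 181 of these were above it, per kb of exon, in all 6 libraries. Among the genes under the count minimum this held for 290 of 380 (76.3%), and since a high count chose the 203, no test was made. The log2 ratio of antisense gene over partner, in counts per kb with 0.5 added to each count, had a median of 7.90, which is 239-fold, with quartiles at 6.24 and 9.11. For the genes under the count minimum the median was 4.44, which is 21.8-fold, with quartiles at 1.95 and 6.45. In the 183 pairs of the group, the median was 7.71, 7.45 and 8.08 in WT2772, WT2777 and WT2931, and 7.80, 7.80 and 7.98 in KO2775, KO2776 and KO2938, so that both litter 2 libraries were above all of litter 1. The partners had a median mean count of 5.33, and 122 of the 183 had a mean under 10. A mean of 100 or more was reached by 6 partners, Pi4kb, Pex5l, Mtmr11, Dync1h1, Ercc2 and Ubp1, which were named after their values were seen. The summed counts of the 203 genes were 20.0 to 23.8 times those of their partners in the 6 libraries.

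The highest ratio was that of Gm17035 to Ndrg1, a gene of stress and hypoxia responses, with a log2 of 12.00 ± 1.29 (SD over 6 libraries). Gm17035 had 717, 583, 659, 673, 483 and 496 counts in WT2772, WT2777, WT2931, KO2775, KO2776 and KO2938, and Ndrg1 had 0, 3, 3, 4, 3 and 1. Gm28221 over the neuronal calcium sensor gene Ncald followed with 11.72 ± 0.91, and Gm44170 over Sec61a1 with 11.57 ± 0.47. With so few counts on these partners, the ratios depend on the number added. At the other end, Gm26852 and Ercc2, a helicase of DNA repair and transcription initiation, had nearly equal levels per kb, with a log2 ratio of -0.16 ± 0.35. Gm26852 had 143, 123, 216, 126, 100 and 161 counts and Ercc2 135, 103, 121, 116, 105 and 104 in the same order, and Gm26852 was the higher per kb in 2 of 6 libraries. Gm17690 over Mtmr11, a myotubularin-related gene, had a log2 ratio of 0.48 ± 0.40 and was the higher in 5 of 6 libraries, from 141, 164, 297, 183, 130 and 217 counts against 159, 143, 160, 151, 114 and 128. Gm4673 over Lsr, a lipoprotein receptor gene, was next with 1.30 ± 0.48.

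**Figure D2:**
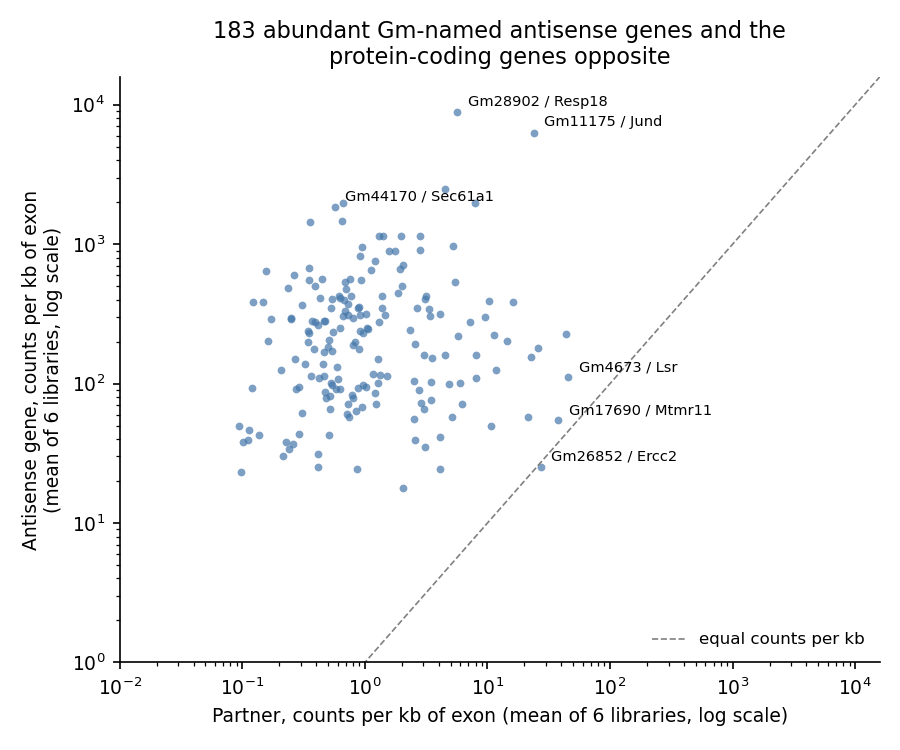
Counts per kb of exon of 183 antisense genes (y axis) against those of their partners (x axis), means of 6 libraries on log scales, 1 point per gene pair, with a dashed line at equal counts per kb. The point of Gm26852 and Ercc2 lies just below the line, and the other pairs lie above it, by a median log2 ratio of 7.90.

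The genes opposite were sorted by lists of genes with known roles in islets or in all cells. Here any exon overlap counted, also with a gene that was not the partner, and an antisense gene could stand in more than 1 list, as Gm44170 and Gm5577 did. Hormone and secretory granule genes lay opposite 2 antisense genes, Gm28902 (Resp18) and Gm28294 (Ptprn), with mean counts of 1911.5 and 763. Genes of the endoplasmic reticulum stress response were represented by Sec61a1 alone, opposite Gm44170, and immediate early genes by Jund alone, opposite Gm11175. Of the heat shock genes listed, and of actin, tubulin and vimentin genes, which made up the list for the cytoskeleton, 0 lay opposite. Of islet transcription factors there was Mlxipl, which encodes the glucose-responsive factor ChREBP, opposite Gm43500 with a mean of 166 counts. Of genes for glucose sensing and excitability there was the calcium channel gene Cacna1a, opposite Gm16183 with 130.5 counts. Among translation genes were Eif3d and Rpl22l1, opposite Gm17638 and Gm33051 with 648 and 245 counts. The ATP synthase gene Atp5l, opposite Gm30934, stood for the respiratory chain with 324 counts. Histone genes were opposite Gm5577 (H1fx), Gm20628 (Hist2h3b) and Gm20633 (Hist2h2aa1), at 639, 132 and 112 counts. RNA binding and splicing genes were opposite 6 antisense genes, such as Gm21844 (Rbm14), Gm17690 (Sf3b4), Gm43579 (Ddx54) and Gm11508 (Srsf1), although the partner of Gm17690 was Mtmr11, with a median of 157 counts. Membrane traffic genes were opposite 9, such as Gm44170 (Sec61a1), Gm5577 (Rab7), Gm37756 (Copa) and Gm26636 (Copg1), although the partner of Gm5577 was H1fx, with a median of 277 counts.

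Whether truncation of A830019P07Rik went with a change in these genes was asked by comparing the 3 flox/flox with the 3 WT libraries. No antisense gene of the group was called, 0 of 203 at an adjusted p under 0.05 by edgeR's quasi-likelihood test, and over all 5478 genes tested the share called was 0%. DESeq2 and limma-voom also called 0 of the 203, and at an unadjusted p under 0.05 edgeR gave 2, Gm20633 and Gm47958, beside 1.84% of all genes. The log2 fold changes of the 203 had a median of 0.05, beside -0.01 over all genes, and 201 lay within 0.5 of 0, with a median SE of 0.16. The CPM values of flox/flox and WT did not overlap for 15 genes, 14 higher and 1 lower in flox/flox, which is 7.39% beside 7.43% of all genes. By direction, 3.74% of all genes had flox/flox values above and 3.69% below those of WT. Without KO2938, 0 of the 203 and 1 of all 5984 genes tested were called by edgeR, and 7 of the 203 had an unadjusted p under 0.05, beside 3.21% of all genes. Such genes numbered 6 without WT2931, beside 3.93% of all genes, and 1 without KO2775, beside 1.88%, with 0 of all genes called in both fits. A gene that missed the threshold is not shown to have had equal counts in both genotypes.

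Gm20633 (ENSMUSG00000093553, chr3:96243550-96246380, minus strand), opposite the histone gene Hist2h2aa1, had raw counts of 46, 32 and 98 in WT2772, WT2777 and WT2931 and 233, 25 and 240 in KO2775, KO2776 and KO2938. KO2775 and KO2938 were high, KO2776 had the lowest raw count of all 6, and the genotypes overlapped. The log2 fold change was 1.77 (SE 0.56, unadjusted p = 0.00725 in edgeR). With litter as a block, it was 1.82 with an adjusted p of 4.0e-05 in edgeR's quasi-likelihood test, the 1 call among the 203 in that fit, where 0.0548% of all genes were called. Over all alternatives its adjusted p in edgeR, DESeq2 and limma ranged from 4.0e-05 to 1.00. Scaling by library size alone also called it, with an adjusted p of 0.00154 in edgeR, whereas the block with robust estimation, chosen after seeing the data, called 0 of the 203. Hist2h2aa1 had 4, 0, 0, 3, 1 and 1 counts in WT2772, WT2777, WT2931, KO2775, KO2776 and KO2938. In the blocked fit, 18 of the 203 had an unadjusted p under 0.05 in edgeR, beside 5.4% of all genes. Of these 18, 17 were higher in flox/flox, beside 2.35% of all genes higher and 3.05% lower. For unadjusted p, in this fit or the unblocked ones, the share among genes with a mean count of 100 or more is not given. Whether the direction is particular to the antisense genes was therefore not tested.

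Gm47958 (chr10:118163985-118165162), opposite the centrosomal gene Mdm1, had raw counts of 276, 252 and 258 in WT2772, WT2777 and WT2931 and 132, 182 and 108 in KO2775, KO2776 and KO2938. On the CPM scale all 3 flox/flox libraries, at 195, 321 and 189, were below the 3 WT libraries, at 379, 327 and 349, with a log2 fold change of -0.58 (SE 0.20, unadjusted p = 0.0104 in edgeR). It was the 1 gene of the group whose flox/flox values all lay below WT, and its adjusted p in edgeR with the litter block was 0.112, the lowest of all alternatives, which reached 1.00. Gm15991, opposite the exchange factor gene Psd3, had 186, 236, 203, 214, 219 and 187 counts in WT2772, WT2777, WT2931, KO2775, KO2776 and KO2938, and a log2 fold change of 0.30 (SE 0.15, unadjusted p = 0.0703 in edgeR). Gm15638, opposite the spans of Phldb2 and Plcxd2, had 215, 239, 184, 237, 176 and 241 counts and 0.34 (SE 0.16, unadjusted p = 0.0556 in edgeR). In CPM, all 3 flox/flox libraries were above WT for Gm15991, and for Gm15638 KO2776 lay among the WT values. Gm20628, opposite Hist2h3b, and Gm26954, opposite Pclo, also had flox/flox CPM values above all WT values, with log2 fold changes of 0.33 and 0.29. On the lower side, Gm29361, opposite the splicing gene Rbm25, had a log2 fold change of -0.20 (SE 0.15, unadjusted p = 0.22 in edgeR), and Gm10602, opposite the phosphatase gene Inppl1, had -0.20 (SE 0.16, unadjusted p = 0.231 in edgeR). None of these 7 passed the threshold in the unblocked or the blocked fit. Scaling by library size alone, under which all genes had a median of -0.23 in place of -0.01, gave 0.09 for Gm15991, 0.11 for Gm15638, 0.13 for Gm20628 and 0.08 for Gm26954. It gave -0.41 for Gm29361 and -0.44 for Gm10602. Single libraries also moved these small values, Gm20628 to 0.20 and Gm29361 to -0.13 without KO2776, Gm15638 to 0.22 without KO2938, Gm26954 to 0.19 without WT2931, and Gm10602 to -0.13 without KO2775.

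More of these genes were called between litters than between genotypes. Of the 203 genes, 36 (17.7%) were called between litter 2 and litter 1 by edgeR's quasi-likelihood test with genotype in the model, at an adjusted p under 0.05, where 11.3% of all 5478 genes were called. Of the 964 genes with a mean count of 100 or more, 192 (19.9%) were called, so the share among the antisense genes was near that of genes counted as deeply. By direction, 16 were higher and 20 lower in litter 2, beside 6.08% and 5.24% of all genes. The median log2 fold change of the 203 was -0.04, beside -0.01 over all genes. Values of the litters did not overlap for 88 genes (43.3%, beside 32.9% of all genes), of which 35 were among the 36 called. Litter 2 holds 1 library per genotype, so everything that differed between the litters, such as day or handling, cannot be told apart from litter. In islets, fewer cells of a type and less RNA per cell cannot be told apart. Without WT2931, 24 of the 203 were called, 8 higher and 16 lower, beside 3.98% of all genes in that fit. Without KO2938 there were 32, with 17 higher and 15 lower, beside 7.19%. DESeq2 called 20, 9 higher and 11 lower, beside 1.12% of the 15286 genes, which it took without the filter on low counts. Limma-voom called 34, beside 549 of the 5478 genes. Scaling by library size alone called 13, with 3 higher and 10 lower, beside 4.84%. For these other fits and for the values that did not overlap, the share among genes counted as deeply is not given. The shares of all genes there include many with lower counts.

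Cell type markers were counted beside this result, in the order WT2772, WT2777, WT2931, KO2775, KO2776 and KO2938. Of 9 beta cell markers all 9 were listed, with sums of 333, 453, 319, 347, 281 and 214 counts and Ins2 highest. Of alpha cell markers, Gcg had 43, 114, 34, 43, 61 and 23 counts and Ttr 12, 12, 9, 5, 6 and 4, and Irx2 was not listed. On the CPM scale the beta cell sums were 457, 588, 514 and 495 in litter 1 and 431 and 374 in litter 2, lower in both litter 2 libraries than in any of litter 1. Of the single beta cell markers, this held for Ins2 and Nkx6-1, and the others overlapped between the litters. Gcg in CPM was also lower in both litter 2 libraries, at 59.0, 148, 63.7 and 107 in litter 1 and 46.0 and 40.2 in litter 2, whereas Ttr overlapped. Sst was the 1 of 2 delta cell markers listed, with 6, 12, 4, 6, 7 and 1 counts, and its few counts were also lower in litter 2 in CPM, at 8.23, 15.6, 8.88 and 12.3 in litter 1 and 5.41 and 1.75 in litter 2. Of PP cell markers 2 of 2 were listed, with sums of 28, 25, 17, 10, 25 and 11 counts and Ppy highest. Of 9 acinar markers 8 were listed, with 55, 72, 57, 32, 29 and 37 counts and Cel highest. Between genotypes, the acinar sums in CPM did not overlap. They were 75.5, 93.4 and 77.1 in WT2772, WT2777 and WT2931, and 47.4, 51.1 and 64.7 in KO2775, KO2776 and KO2938. Of the single acinar markers, Cela1, Cpb1 and Ctrb1, with few counts, were also lower in all flox/flox libraries. The others overlapped, among them Cel at 29.9 to 37.9 CPM in WT and 20.7 to 31.5 CPM in flox/flox. Over all genes tested, values of single genes did not overlap for 7.43% between genotypes and 32.9% between litters. The CPM sums of the other sets with listed markers overlapped between genotypes, and the part of acinar RNA in the genotype results was not tested. Krt7 was the 1 of 3 ductal markers listed, with 24, 16, 33, 27, 14 and 36 counts, and in CPM, at 32.9, 20.8, 40.0 and 24.7 in litter 1 and 44.6 and 62.9 in litter 2, it was highest in the litter 2 libraries, and Krt19 and Sox9 were not listed. Endothelial markers, 3 of 3 with Plvap highest, summed to 10, 17, 12, 16, 4 and 5 counts. Immune markers, 2 of 4 with Cd68 highest and Ptprc and Lyz2 not listed, summed to 15, 12, 11, 7, 9 and 4 counts, and 0 of 4 stromal markers were listed. The CPM sums of PP, acinar, endothelial and immune markers overlapped between the litters. These sums carry the same limit of strand as all counts here, and their part in the litter result was not tested.

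Among genes higher in litter 2, Gm43500 (ENSMUSG00000107296, chr5:135122410-135123293, minus strand), opposite Mlxipl, had 130.3, 180.4, 166 and 188 CPM in WT2772, WT2777, KO2775 and KO2776 of litter 1 and 409.6 and 423 CPM in WT2931 and KO2938 of litter 2. Both litter 2 libraries were above every library of litter 1, and WT and flox/flox overlapped within litter 1, with a log2 fold change of 1.33 (SE 0.14, adjusted p = 2.6e-10) in edgeR. Gm45486 (chr7:46123352-46130568, plus strand), in the span of Abcc8, had 629.8, 692, 648 and 555 CPM in WT2772, WT2777, KO2775 and KO2776 of litter 1 and 1484 and 1279 CPM in WT2931 and KO2938 of litter 2, with a log2 fold change of 1.13 (SE 0.12, adjusted p = 6.9e-10) in edgeR. Again the litters did not overlap, in either genotype. Gm43915, opposite Mical3, an oxidase that acts on actin and in vesicle traffic, had 195, 228, 170.2 and 206 CPM in litter 1 and 381 and 337 CPM in litter 2, libraries in the same order, and a log2 fold change of 0.85 (SE 0.13, adjusted p = 8.6e-06) in edgeR. Gm17690, opposite Mtmr11 and the splicing factor gene Sf3b4, had 193, 213, 271 and 229 CPM in litter 1 and 402 and 379 CPM in litter 2, with a log2 fold change of 0.80 (SE 0.13, adjusted p = 2.2e-05) in edgeR. Gm10848, opposite the calcium channel subunit gene Cacnb2, had 187, 197, 179 and 195 CPM in litter 1 and 304 and 327 CPM in litter 2, with a log2 fold change of 0.73 (SE 0.13, adjusted p = 1.0e-04) in edgeR. For each of these 5 genes both litter 2 libraries were above all 4 of litter 1. Scaling by library size alone, under which the 5478 genes had a median of -0.19 in place of -0.01 on the log2 scale, did not call Gm43915, Gm17690 or Gm10848, at 0.66, 0.61 and 0.54.

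**Figure D3:**
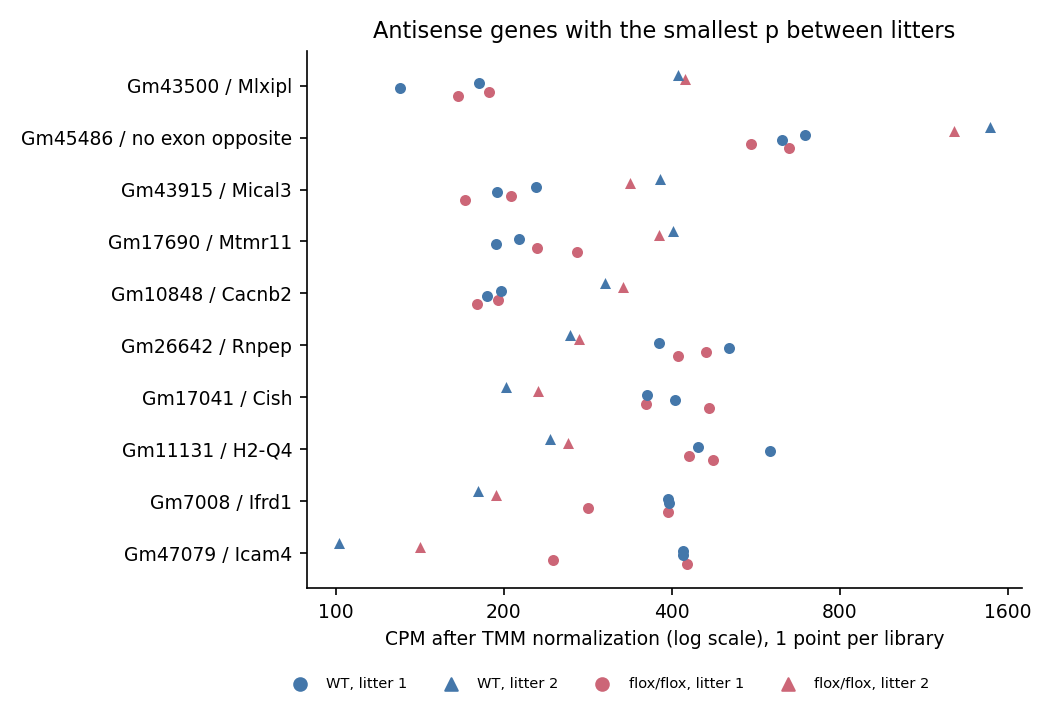
CPM after TMM normalization (x axis, log scale) of the 10 antisense genes with the smallest p between litters, 5 in each direction, 1 point per library, blue for WT and red for flox/flox, circles for litter 1 and triangles for litter 2. Within each gene both triangles lie on the same side of all 4 circles.

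Among genes lower in litter 2, Gm47079 (ENSMUSG00000110790, chr9:21028307-21032357, minus strand), opposite Icam4, Icam1 and Icam5, had 418, 419, 426 and 245 CPM in WT2772, WT2777, KO2775 and KO2776 of litter 1 and 101 and 142 CPM in WT2931 and KO2938 of litter 2. KO2776 lay between the litters, 3 libraries of litter 1 were nearly equal, and the log2 fold change of -1.66 (SE 0.18, adjusted p = 6.9e-10) in edgeR was the largest in size of the 203. Gm7008, opposite Ifrd1, an interferon-related regulator of transcription, had 395, 393, 394 and 284 CPM in litter 1 and 179.8 and 194 CPM in litter 2, libraries in the same order, with a log2 fold change of -0.98 (SE 0.15, adjusted p = 3.7e-06) in edgeR. KO2776 was again the lowest of litter 1. Gm11131, opposite the class I histocompatibility gene H2-Q4, had 601, 446, 474 and 429.7 CPM in litter 1 and 242 and 260.4 CPM in litter 2, with a log2 fold change of -0.96 (SE 0.14, adjusted p = 3.4e-06) in edgeR. Gm17041, opposite Cish, an inhibitor of cytokine receptor signalling, had 405, 361, 466 and 359 CPM in litter 1 and 201 and 231 CPM in litter 2, with a log2 fold change of -0.89 (SE 0.14, adjusted p = 1.2e-05) in edgeR. Gm26642, opposite the aminopeptidase gene Rnpep and the epithelial transcription factor gene Elf3, had 506, 379, 410.1 and 461 CPM in litter 1 and 262 and 273 CPM in litter 2, with a log2 fold change of -0.72 (SE 0.14, adjusted p = 2.9e-04) in edgeR. In these 5 genes too, the litters did not overlap and each litter 2 library was low.

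A further 7 of the genes called between litters are described after their values were seen, and with them Gm11626, the lowest gene above the count minimum. Gm20496, opposite the immunoproteasome subunit gene Psmb8 and the peptide transporter gene Tap2, had 306, 247, 308 and 241 CPM in litter 1 and 166 and 159 CPM in litter 2 and a log2 fold change of -0.76. Gm19412, opposite Tapbp, which loads peptides onto class I molecules, had 799, 599.6, 715 and 585 CPM in litter 1 and 435 and 493 CPM in litter 2 and -0.54. Gm26885, opposite the kinase gene Pim1, had 232, 183, 175 and 225 CPM in litter 1 and 135 and 90.9 CPM in litter 2 and -0.83. All 3 had both litter 2 libraries below all of litter 1, and the call of Gm19412 was lost without WT2931, at -0.40, with DESeq2, at -0.51, and with library size alone, at -0.75. Gm11626, opposite the interferon-induced gene Ifi35, had 185, 153, 194 and 157 CPM in litter 1 and 108 and 83.9 CPM in litter 2 and -0.83, a call lost without KO2938, at -0.64, with an adjusted p of 0.0571 in edgeR that was the highest of all alternatives. Gm11696, opposite the G protein gene Gna13, had a log2 fold change of -0.83, and Gm44777, opposite the lipid kinase gene Pik3c2a, -0.67. Gm44777 rested on WT2931, with 449, 505, 491 and 507 CPM in litter 1 and 216 and 421 CPM in litter 2, and had -0.24 without WT2931, where it was not called, and -1.13 without KO2938. On the higher side, Gm5441 in the span of Ptprn2 had 266, 314, 283 and 282 CPM in litter 1 and 426 and 389.7 CPM in litter 2 and 0.51, and Gm29331, opposite the adenylate cyclase gene Adcy6, had 266, 332, 287 and 298 CPM in litter 1 and 453 and 418 CPM in litter 2 and 0.56. Without WT2931 neither was called, at 0.47 and 0.52, nor with library size alone, at 0.33 and 0.37.

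By list of the genes opposite, the calls between litters were as follows, to be read beside the 11.3% of all 5478 genes and the 19.9% of genes with a mean count of 100 or more that were called. Each list held 9 antisense genes or fewer, and its share was not tested against these. Gm11175, opposite Jund, had 10384, 8069, 9695 and 8689.7 CPM in litter 1 and 6261 and 5842 CPM in litter 2, in the order WT2772, WT2777, KO2775, KO2776, WT2931 and KO2938, and a log2 fold change of -0.61 (SE 0.15, adjusted p = 0.00384) in edgeR. It was not called when scaled by library size alone, at -0.80, a value larger in size, where all genes had a median of -0.19. Neither of the 2 genes opposite granule genes was called, with log2 fold changes of -0.21 for Gm28902 and 0.19 for Gm28294, nor was Gm44170 at -0.20. Gm16183, opposite Cacna1a, was called higher at 0.48, from 165, 162, 159.9 and 201 CPM in litter 1 and 259.6 and 217 CPM in litter 2. Its call was lost without WT2772, WT2777, WT2931 or KO2775, where the log2 fold change was 0.46, 0.44, 0.28 and 0.45. Opposite the translation gene Rpl22l1, Gm33051 was called lower at -0.55, a call lost without KO2938 at -0.43. Gm30934, opposite Atp5l, was called lower at -0.49, a call lost without WT2931 at -0.31. Of the 6 opposite RNA binding genes, Gm17690 and Gm21844 (Rbm14) were called higher, Gm21844 at 0.51 and with its call lost without WT2931 or KO2775 at 0.52 and 0.44. The median of these 6 was -0.00, beside -0.01 over all genes. Of the 9 opposite membrane traffic genes, Gm34882 (Rab3gap2) was called higher at 0.48 and Gm32926 (Arfgef3) lower at -0.42, both named after their values were seen, and the rest were not called, with a median of 0.05 for the 9. Without WT2931, Gm34882 was at 0.26 and Gm32926 at -0.38, and neither was called. Gm34882 was also not called without WT2777, and Gm32926 in any fit without 1 library other than WT2777, with limma-voom or without the filter on low counts. DESeq2 and scaling by library size alone called none of Gm16183, Gm33051, Gm30934, Gm21844, Gm34882 and Gm32926. In that order of genes, DESeq2 gave log2 fold changes of 0.51, -0.51, -0.46, 0.54, 0.52 and -0.39, close to those of edgeR. Library size alone gave 0.30, -0.73, -0.69, 0.32, 0.30 and -0.62, so that the 3 lower genes were further from 0 and the 3 higher ones nearer to it. Of the 3 opposite histone genes, with a median of -0.16, Gm20633 was called higher at 1.17, from 63.1, 41.5, 345 and 44 CPM in litter 1 and 132 and 419 CPM in litter 2, with KO2775 inside the range of litter 2. Its value was 2.13 and 0.74 without KO2775 or KO2776, and DESeq2 and robust estimation did not call it, at 1.25 and 1.17.

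Few partners had enough counts to be tested beside their antisense gene. A partner passed the filter for 64 of the 203 genes, and 5 of these partners were called between litters by edgeR, Jund, Lsr, Ivns1abp, Chd2 and Ifi35, 2 higher and 3 lower in litter 2. That is 7.81% of the 64, beside 11.3% of all genes, with 6.08% higher and 5.24% lower. Among the 36 called antisense genes 10 had a tested partner, and for 9 of them the log2 fold change of the partner had the same sign. Over all 64 pairs the sign was the same in 41 (64.1%), and 44 of the 64 partners and 31 of the antisense genes lay below 0, with a median of -0.21 for the partners. Of the 10 called genes with a tested partner, Gm26852, opposite Ercc2, was called higher at 0.68, from 196, 159.6, 187 and 176 CPM in litter 1 and 292 and 281 CPM in litter 2, a call lost with library size alone at 0.48. At 2 loci both were called. Gm11175 and Jund were both lower in litter 2, at -0.61 and -0.86. Gm11626 was lower at -0.83 and Ifi35 higher at 1.21, from partner counts of 13, 18, 37, 6, 9 and 15 in WT2772, WT2777, WT2931, KO2775, KO2776 and KO2938. Across the 64 pairs, Spearman's rho of the log2 fold changes was 0.28, a description over points that share the same 6 libraries. The genotype effect was called as different between the litters for 0 of the 203 genes by edgeR's interaction test, beside 0.128% of all genes, and 17 had an unadjusted p under 0.05, beside 7.19% of all genes. No other tool was run for the interaction. Each genotype of litter 2 is 1 library in that test, WT2931 or KO2938, so the spread within a genotype came from litter 1. KO2938 stood apart in its counts, and its part in the interaction was not tested. The smallest adjusted p in that edgeR test was 0.0564, for Gm15441 opposite Txnip, with an interaction of -0.91 on the log2 scale.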

How the data were processed

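The deposited table holds raw counts, which the authors made from strand-specific total RNA libraries by discarding rRNA reads, aligning the rest to mm10 with HISAT2 2.1.0 and counting reads per Ensembl gene with HTSeq. All 6 columns were used, and the columns not used were 0. A second table, of which each column holds the authors' own fold changes, errors or p-values, was not used. Gene types, exons and strands came from GENCODE vM21, in which 15258 of 15286 gene identifiers matched, and overlaps were counted in python 3.11.15 with pandas 2.3.3 and scipy 1.17.1. The partner of an antisense gene was the protein-coding gene with the longest exon overlap on the opposite strand.

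The whole table was fitted in R 4.3.3 with edgeR 4.0.16, using filterByExpr (minimum count 10), TMM and the quasi-likelihood test, with Benjamini-Hochberg adjustment over the 5478 genes kept and a threshold of 0.05. Genotype was tested alone and with litter as a replicate block, litter with genotype in the model, and the interaction of both. DESeq2 1.42.0, limma 3.58.1, other scalings, filters, count minimums and left-out libraries were alternatives. When a fit left litter 2 with 1 library, that library was assumed to vary like the others. SE is the log2 fold change divided by the square root of the F statistic. CPM is the count per effective library size, times a fixed scale.

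Members and gene lists were chosen with earlier results of these data known. Named are the 10 genes of highest mean count, the 5 just inside and outside the minimum, genes called for genotype or with the smallest p in each direction (3 each, also among genes whose genotypes did not overlap), the 5 of smallest litter p in each direction, the 3 highest and 3 lowest ratios to the partner, the 3 longest overlaps, and up to 4 genes per list of genes opposite, where any exon overlap counted. For 2 marker genes and 1 partner of the lists, the values are not reported here. Litter labels were checked by the correlation of WT with flox/flox libraries after centring each gene, which was 0.14 to 0.27 within litter 1, 0.46 within litter 2 and -0.35 to -0.25 between litters.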

Additional observations from a re-analysis of the deposited data

Results flagged for a closer look

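In litter 1, which has 4 libraries, CPM values of named genes were checked for a library far from the other 3, by Dixon's ratio of its gap to the whole range, above its 95% critical value. Of 61 values checked, 5 had such a library, and chance gives about 1 in 20. Gm47079, opposite Icam4, Icam1 and Icam5, had 245 CPM in KO2776 and 418 to 426 CPM in the other 3 libraries. Gm7008, opposite Ifrd1, was at 284 CPM in KO2776 and at 393 to 395 CPM in the others. Gm16183, opposite Cacna1a, stood at 201 CPM in KO2776, above the 159.9 to 165 CPM of the others. For Gm20633, opposite Hist2h2aa1, KO2775 was far above, at 345 CPM, and the others were between 41.5 and 63.1 CPM. Gm11696, opposite Gna13, had 224 CPM in WT2772 and 165 to 175 CPM in the others. The library far from the rest was KO2776 for 3 of these 5 genes, and no explanation was tested.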

How the results depend on the processing

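The count of 0 genes called between genotypes by edgeR was the same under 10 other settings of scaling, filter, test or threshold (1 of them, the block with robust estimation, chosen after seeing the data), at both other count minimums and in every fit without 1 library, with 2 at an unadjusted p under 0.05 in the fit reported. It was 1 with library size only and 1 with the replicate block on litter, both Gm20633, and the cause was not tested. The block on 3 pairs of mice was not run, since the labels do not define such pairs. The 36 genes called between litters became 20 with DESeq2 and 13 with library size only, where the cause was not tested, and 24 to 32 without 1 library. The share called of all genes in the same fits went from 11.3% to 1.12% of 15286 genes, to 4.84%, and to 3.98 to 9.08%. A count minimum of 50 gave 58 and of 200 gave 16, since it changes the number of genes. The same minimums gave 302 and 99 genes with exons opposite, 97 above the partner at 200, median log2 ratios of 7.54 and 8.44, and at 200 a median share of counts of 7.07%. The median log2 ratio was 5.57 from raw counts and 7.65 with 1 added to each count, and the median share was 11.2% without AY036118 in the total, each by construction. The 35 log2 fold changes given for the genotype genes and for named genes called between litters kept their sign in every alternative run. Of their 568 values under alternatives, 45 lost the call, 14 of them with library size only and 9 without WT2931, and 2 gained it. All 45 were values between litters, since those between genotypes were not called in the fit reported and had no call to lose. At the sums of counts given above, 122 of 183 partners had a mean count under 10, and 64 genes had a partner that could be tested. The part of sequencing depth, of reads not counted or of strand in these low counts was not tested. No alternative was run for the values of partners or for the interaction.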
